A study of Mus musculus with 9 samples.

Results

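The cytochrome P450 genes of mouse hepatocytes were described across 9 RNA libraries, 3 in each of 3 groups. The genes were chosen by name: each protein-coding gene whose symbol begins with Cyp and a digit was taken, apart from Cyp51, Cyp27a1 and Cyp8b1. The choice gave 97 of the 54532 genes in the deposited table, in 37 subfamilies of 15 families. The first group, CKO Tu, held primary hepatocytes of COX-2fl/fl/Alb-Cre+ mice, in which the albumin promoter drives Cre in hepatocytes, given 6 μmol/L tunicamycin for 24 h. The second, WT Tu, held hepatocytes of COX-2fl/fl/Alb-Cre- littermates under the same treatment, and the third, WT DMSO, held hepatocytes of such littermates given the solvent alone. Mice of all 3 groups were on the C57BL/6 background and carried the floxed COX-2 alleles, and all cells were isolated by perfusion and kept in 1% serum for 2 h before treatment. The labels give no ages, nor whether each replicate stands for its own animal. The p-values here set group differences against the spread between these libraries, which may not be the spread between animals. CKO cells without tunicamycin were not analysed here.

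Cytochrome P450 enzymes are heme proteins, most of them anchored in the membrane of the endoplasmic reticulum (ER), that insert an oxygen atom into their substrates with electrons from P450 reductase. In liver, families CYP1 to CYP3 clear drugs, solvents and steroids, CYP4 enzymes hydroxylate the end of fatty acid chains, and the remaining families act in bile acid, vitamin D, retinoid and steroid metabolism. Many of the genes are switched by ligand-activated receptors, among them AHR, CAR, PXR and PPARα, and several mouse genes are made mainly in one sex. Tunicamycin blocks protein N-glycosylation and thereby loads the ER, the compartment in which most P450 enzymes reside, with unfolded protein.

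Promoter sequences of 7 genes are shown because the results turn on close relatives in the Cyp2c and Cyp2a subfamilies and on Cyp1a2, which fell most under tunicamycin. Each window runs 250 bases before to 50 bases after the annotated start, 5′ to 3′ on the gene's strand, from RefSeq on GRCm38.p6, the assembly that mm10 represents. Capitals mark CAAAGTCCA, the core letters of the HNF4A motif, and TATAAA, the letters of a TATA box.
Cyp2c69, chr19:39886720-39887019, minus strand: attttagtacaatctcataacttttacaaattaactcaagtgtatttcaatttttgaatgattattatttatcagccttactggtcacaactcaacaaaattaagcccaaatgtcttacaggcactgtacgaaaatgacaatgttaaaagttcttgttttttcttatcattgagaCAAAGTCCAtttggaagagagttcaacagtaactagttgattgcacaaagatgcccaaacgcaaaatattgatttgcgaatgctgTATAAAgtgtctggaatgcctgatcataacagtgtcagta
Cyp2c67, chr19:39648993-39649292, minus strand: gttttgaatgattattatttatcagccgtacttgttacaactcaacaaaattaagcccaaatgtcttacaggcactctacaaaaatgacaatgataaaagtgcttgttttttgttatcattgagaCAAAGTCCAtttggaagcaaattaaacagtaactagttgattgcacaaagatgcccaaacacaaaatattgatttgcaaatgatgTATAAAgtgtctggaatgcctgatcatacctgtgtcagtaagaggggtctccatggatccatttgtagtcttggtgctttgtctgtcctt
Cyp2c40, chr19:39812765-39813064, minus strand: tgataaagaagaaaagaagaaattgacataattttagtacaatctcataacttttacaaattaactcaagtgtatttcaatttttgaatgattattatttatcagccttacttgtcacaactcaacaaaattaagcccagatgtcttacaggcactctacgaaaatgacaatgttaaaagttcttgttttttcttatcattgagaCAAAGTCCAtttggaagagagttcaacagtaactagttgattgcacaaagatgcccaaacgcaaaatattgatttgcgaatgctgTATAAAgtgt
Cyp2c68, chr19:39741052-39741351, minus strand: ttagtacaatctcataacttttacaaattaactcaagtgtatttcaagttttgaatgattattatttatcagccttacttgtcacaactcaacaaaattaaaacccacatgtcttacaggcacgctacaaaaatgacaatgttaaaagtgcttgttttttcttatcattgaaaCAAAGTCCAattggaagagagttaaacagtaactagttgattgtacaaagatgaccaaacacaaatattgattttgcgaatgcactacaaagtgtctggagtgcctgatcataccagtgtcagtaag
Cyp1a2, chr9:57683606-57683905, minus strand: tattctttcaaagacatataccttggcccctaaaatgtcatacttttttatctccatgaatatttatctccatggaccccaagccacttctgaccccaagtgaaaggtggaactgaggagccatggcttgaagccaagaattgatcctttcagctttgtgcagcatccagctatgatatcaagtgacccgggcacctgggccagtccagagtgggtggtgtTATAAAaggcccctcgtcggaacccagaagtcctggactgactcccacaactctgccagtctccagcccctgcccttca
Cyp2a4, chr7:26306942-26307241, plus strand: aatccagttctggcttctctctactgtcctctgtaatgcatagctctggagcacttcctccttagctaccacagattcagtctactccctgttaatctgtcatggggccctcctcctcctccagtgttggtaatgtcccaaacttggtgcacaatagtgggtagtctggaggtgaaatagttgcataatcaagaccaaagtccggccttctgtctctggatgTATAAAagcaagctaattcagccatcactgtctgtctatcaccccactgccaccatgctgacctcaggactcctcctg
Cyp2a5, chr7:26835089-26835388, plus strand: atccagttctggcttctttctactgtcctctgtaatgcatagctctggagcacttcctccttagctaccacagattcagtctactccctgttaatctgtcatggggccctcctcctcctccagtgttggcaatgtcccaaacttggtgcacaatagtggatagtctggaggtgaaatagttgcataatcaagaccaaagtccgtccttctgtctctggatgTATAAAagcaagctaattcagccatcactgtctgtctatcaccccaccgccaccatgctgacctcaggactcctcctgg
Over the aligned bases, the Cyp2c69 window was 98.9% identical to that of Cyp2c40, 93.6% to that of Cyp2c68 and 92.8% to that of Cyp2c67, and the Cyp2a4 and Cyp2a5 windows were 98.3% identical. CAAAGTCCA began 75, 125, 45 and 77 bases before the start of Cyp2c69, Cyp2c67, Cyp2c40 and Cyp2c68, in that order. TATAAA began 85 bases after the first letter of CAAAGTCCA in Cyp2c69, Cyp2c67 and Cyp2c40 alike, so these distances differ with where the start is annotated. It lies 10 and 40 bases after the annotated start in Cyp2c69 and Cyp2c40, 40 bases before it in Cyp2c67, 28 in Cyp2a4, 29 in Cyp2a5 and 29 in Cyp1a2, and is not in the Cyp2c68 window. The CAAAGTCCA letters, searched on both strands, were in the windows of 10 of the 74 P450 genes with a RefSeq window (13.5%) and in 0.477% of all 27025 windows. Those 10 genes were Cyp2c40, Cyp2c65, Cyp2c67, Cyp2c68, Cyp2c69, Cyp2c70, Cyp3a11, Cyp3a16, Cyp3a41a and Cyp3a41b, so that they were all of the Cyp2c and Cyp3a subfamilies. TATAAA was in 30 of the 74 windows (40.5%) and in 14.2% of all windows, and TGTTTAC, a forkhead (FOXA) motif, was in 9 (12.2%) against 3.55%. None of the 74 windows held the ER stress response element (in 0.130% of all windows), TGACGTGG (the core of the unfolded protein response element, 0.607%) or TTGCGTG (the core of the xenobiotic response element, 1.16%). The motifs were searched one by one, the last letters of the ER stress response element, read on the other strand, can fall within TGACGTGG, and CAAAGTCCA and TATAAA do not overlap in the windows shown. A match describes letters in the window, not a bound site.

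Levels are in FPKM, the fragments of a gene per kilobase of its length, divided by a library size that the authors set. Fragments per gene were recovered from the steps of the FPKM values and came to 14897358 to 16001484 per library. Ptgs2, which encodes COX-2, had 1, 1 and 2 fragments in the CKO Tu libraries, 8, 5 and 5 in WT Tu and 0, 13 and 8 in WT DMSO. The series' text describes male mice, but the 6 WT libraries held 20659 to 33657 fragments of Xist, an RNA made in female cells, and 0 fragments of 4 genes of the Y chromosome (Uty, Kdm5d, Eif2s3y and Ddx3y). The CKO Tu libraries held 0, 3 and 0 fragments of Xist and 3633, 3489 and 3486 of the Y-linked genes. Genotype and the sex pattern of the RNA therefore cannot be told apart in CKO Tu against WT Tu, and the comparison cannot be made without the libraries that go against the text. Tunicamycin against DMSO was within WT libraries of 1 sex pattern. Hepatocyte markers were abundant in each library, and Hspa5, the ER chaperone BiP, averaged 5312 ± 395 FPKM in WT Tu and 576 ± 14.4 FPKM in WT DMSO (SD, n = 3 each). Errors beside other mean FPKM values are likewise SD over 3 libraries, and those beside log2 changes are standard errors (SE) from limma.

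Tunicamycin changed 14 of the 57 P450 genes that could be tested, each by less than 1 on the log2 scale. Cyp1a2, Cyp2c69, Cyp2c67, Cyp2e1 and Cyp2f2 fell, and Cyp2b10, Cyp4f15, Cyp3a44, Cyp4v3, Cyp2d9, Cyp3a11, Cyp4a10, Cyp20a1 and Cyp2j5 rose. A gene was tested if 3 or more libraries reached an FPKM of 1, which took in 57 of the 97 P450 genes, and log2(FPKM + 1) was fitted in limma over all 9 libraries. Tests were two-sided, with Benjamini-Hochberg adjustment across all 11858 tested genes and a threshold of 0.05. Of the 57 genes, 14 passed (24.6%), against 33.6% of all genes tested. Higher in WT Tu were 9 (15.8%, against 17.7% of all genes), and lower were 5 (8.77%, against 15.9%). Of the 57, 0 passed with a log2 change of at least 1 in size, which 3.17% of all genes did. At an unadjusted p below 0.05 there were 20. The 3 libraries of WT Tu and the 3 of WT DMSO did not overlap in 22 of the 57 (38.6%), against 46.7% of all genes. The median log2 change was 0.14 over the 57 genes and -0.0015 over all genes, and 44 of the 57 had a positive value. The median size of the change was 0.17 over the 57 and 0.21 over all genes. In these bulk samples, fewer cells of a type and less RNA per cell cannot be told apart.

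The balance of the directions moved with the scaling, as it did over all genes. Total fragments per library in place of the authors' library sizes moved the median of all genes by -0.11. On that scaling 4 P450 genes were higher (7.02%, against 12.1% of all genes) and 8 lower (14.0%, against 26.2%). Of the calls, 33.3% were higher among P450 genes and 31.5% among all genes, against 64.3% and 52.7% on the authors' scaling. The median of the 57 was 0.02, and 34 had a positive value. Upper-quartile scaling and quantile normalization each gave 6 higher and 5 lower (54.5% higher, against 42.3% and 46.6% of the calls over all genes). No called P450 gene changed sign in any of the 21 alternative fits, and Cyp1a2, Cyp2c69, Cyp2c67, Cyp2e1, Cyp2b10, Cyp4v3 and Cyp4f15 kept an adjusted p below 0.05 in limma in all 21.

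**Figure D1:**
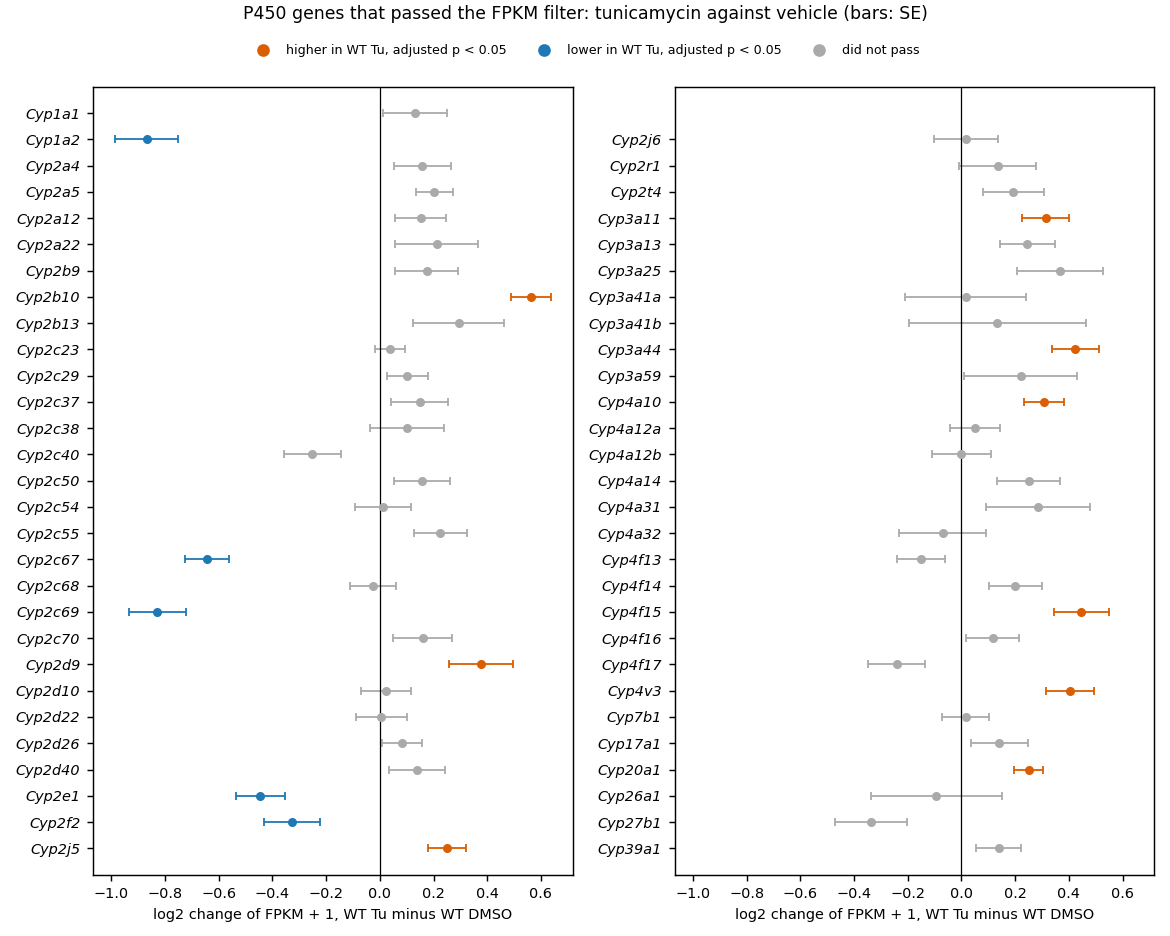
Change of each of the 57 tested P450 genes with tunicamycin, as WT Tu minus WT DMSO on the log2(FPKM + 1) scale (x axis), with genes on the y axis by subfamily in 2 panels. Points are the limma estimates, bars are standard errors, and colours mark the 9 genes that were higher, the 5 that were lower and the rest. No coloured point lies beyond a log2 change of 1, and Cyp1a2 at -0.87 and Cyp2b10 at 0.56 are the outermost on either side.

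Among the genes that fell, Cyp1a2 (mm10 chr9:57676937-57683703, minus strand), which oxidises caffeine and aromatic amines and is induced through AHR, had 19.7, 23.5 and 25.8 FPKM in WT Tu, against 41.9, 37.4 and 49.2 FPKM in WT DMSO. Each WT Tu library lay below each WT DMSO library, and the ratio of the means was 0.537. The log2 change was -0.87 ± 0.12 (SE, limma adjusted p = 0.00069). Cyp1a1, the other AHR-induced gene of the subfamily that was tested, had a log2 change of 0.13 (limma adjusted p = 0.44), and Cyp1b1 had 2, 0 and 1 fragments in WT Tu and 5, 0 and 2 in WT DMSO. Between the Cyp1a genes the change was thus seen in Cyp1a2, while a test of the difference between the genes was not made.

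In the Cyp2c cluster of chromosome 19, 2 genes fell. Cyp2c69 (chr19:39842660-39886769, minus strand) had 27.2, 25.7 and 26.6 FPKM in WT Tu and 39.6, 54.1 and 51.3 FPKM in WT DMSO. The groups did not overlap, and the log2 change was -0.83 ± 0.11 (limma adjusted p = 0.00048), a ratio of means of 0.549. Cyp2c67 (chr19:39608842-39649051, minus strand) had 17.6, 18.1 and 18.4 FPKM in WT Tu and 26.3, 30.3 and 29.7 FPKM in WT DMSO, again without overlap, with a log2 change of -0.64 ± 0.08 (limma adjusted p = 0.00049) and a ratio of 0.626. Their neighbours Cyp2c40 and Cyp2c68, whose promoter windows are shown with theirs, had log2 changes nearer to 0. Cyp2c40 averaged 22.2 ± 0.923 FPKM in WT Tu and 26.7 ± 2.32 FPKM in WT DMSO, with no overlap, at a log2 change of -0.25 ± 0.10 that did not pass (limma adjusted p = 0.098). Cyp2c68 averaged 44.5 ± 1.91 FPKM in WT Tu and 45.4 ± 3.93 FPKM in WT DMSO, at a log2 change of -0.02 (limma adjusted p = 0.85). The genes share reads: 29.5% of the 100-base windows of Cyp2c69 transcripts also occur in Cyp2c40 and 14.3% of those of Cyp2c67 occur in Cyp2c69, so the division of fragments between these copies is uncertain. Of the 12 Cyp2c genes tested, of 15 listed, 0 rose and 2 fell, the log2 changes ran between -0.83 and 0.23, and the median was 0.07. Cyp2c29, an arachidonic acid epoxygenase and the most abundant of the subfamily, had a log2 change of 0.10 (limma adjusted p = 0.34).

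Cyp2e1 (chr7:140763739-140774987, plus strand), the pericentral enzyme of ethanol, acetone and small solvents, had 100.5, 110.2 and 115 FPKM in WT Tu and 132, 156 and 158 FPKM in WT DMSO. The highest WT Tu library was below the lowest WT DMSO library, and the log2 change was -0.45 ± 0.09 (limma adjusted p = 0.006). Cyp2f2, the periportal enzyme that oxidises naphthalene, had 48.4, 57.4 and 55.0 FPKM in WT Tu and 58.0, 71.2 and 73.9 FPKM in WT DMSO. The gap between the groups was narrow, and the log2 change of -0.33 ± 0.10 passed at a limma adjusted p of 0.04. It passed in 10 of 21 alternative fits and did not without WT DMSO replicate 2 (0.12), WT DMSO replicate 3 (0.13), WT Tu replicate 1 (0.098), WT Tu replicate 3 (0.066), CKO Tu replicate 2 (0.058) or CKO Tu replicate 3 (0.052).

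Among the genes that rose, Cyp2b10 (chr7:25897620-25926624, plus strand), the phenobarbital-inducible target of CAR, had 31.4, 30.0 and 31.5 FPKM in WT Tu and 21.3, 20.0 and 20.7 FPKM in WT DMSO. The libraries within each group were close together, and the log2 change was 0.56 ± 0.08 (limma adjusted p = 0.00061), a ratio of 1.5. Its relatives Cyp2b9, with means of 17.6 ± 1.80 FPKM in WT Tu and 15.5 ± 2.61 FPKM in WT DMSO, and Cyp2b13, with a log2 change of 0.29, did not pass (limma adjusted p = 0.29 and 0.22).

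In the Cyp3a subfamily 2 of the 7 genes tested, of 9 listed, rose and 0 fell, the log2 changes ran between 0.02 and 0.42, and the median was 0.25. Cyp3a44 (chr5:145773983-145805874, minus strand), a gene of female mouse liver, had 6.70, 6.48 and 7.59 FPKM in WT Tu and 4.51, 4.76 and 5.46 FPKM in WT DMSO. The groups did not overlap, and the log2 change was 0.42 ± 0.09 (limma adjusted p = 0.0059, and 0.068 with a trend on GC content removed). Cyp3a11, the main drug-metabolising P450 under PXR, had 44.8, 39.7 and 43.3 FPKM in WT Tu and 29.7, 36.5 and 36.4 FPKM in WT DMSO. Here too each WT Tu library was the higher, and the log2 change was 0.31 ± 0.09 (limma adjusted p = 0.024). The call for Cyp3a11 held in 12 of 21 alternative fits and was lost on total fragments (0.11), with quantile normalization (0.065), with a GC trend removed (0.22) and without WT Tu replicate 1 (0.056), WT Tu replicate 3 (0.06) or WT DMSO replicate 1 (0.051). Cyp3a25 had a log2 change of 0.37 ± 0.16 that did not pass (limma adjusted p = 0.11).

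Fatty acid hydroxylases of the CYP4 family were also among the genes that rose. Cyp4f15, of the subfamily that hydroxylates leukotrienes and fatty acids (chr17:32685627-32703352, plus strand), had 5.82, 7.27 and 7.95 FPKM in WT Tu and 4.67, 4.998 and 4.86 FPKM in WT DMSO, at a log2 change of 0.45 ± 0.10 (limma adjusted p = 0.0094). Cyp4v3, the mouse counterpart of the fatty acid hydroxylase mutated in human Bietti crystalline dystrophy (chr8:45304944-45333216, minus strand), had 16.3, 13.9 and 14.6 FPKM in WT Tu and 11.3, 12.3 and 9.57 FPKM in WT DMSO, at a log2 change of 0.40 ± 0.09 (limma adjusted p = 0.0089). In both genes the groups did not overlap. Cyp4a10, a fatty acid omega-hydroxylase under PPARα, had 40.4, 36.6 and 34.8 FPKM in WT Tu and 28.0, 31.6 and 30.2 FPKM in WT DMSO, at a log2 change of 0.31 ± 0.07 (limma adjusted p = 0.012, and 0.066 on total fragments and 0.051 with quantile normalization). Cyp4a14, which is also under PPARα, had 65.3, 60.5 and 66.5 FPKM in WT Tu and 47.7, 56.3 and 57.5 FPKM in WT DMSO, without overlap, and its log2 change of 0.25 ± 0.12 did not pass (limma adjusted p = 0.13). Of 6 Cyp4a genes tested 1 rose, and of 5 Cyp4f genes tested 1 rose, with 0 lower in either.

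The other 3 genes that rose lie in separate subfamilies. Cyp20a1, an orphan P450 with no settled substrate, had 28.2, 28.0 and 27.9 FPKM in WT Tu and 23.7, 23.8 and 22.7 FPKM in WT DMSO, at a log2 change of 0.25 ± 0.05 (limma adjusted p = 0.0079, and lost in 2 of 21 alternative fits, at 0.12 on total fragments and 0.051 with a GC trend removed). Cyp2j5, an arachidonic acid epoxygenase, averaged 21.9 ± 0.517 FPKM in WT Tu and 18.3 ± 1.44 FPKM in WT DMSO, at a log2 change of 0.25 ± 0.07 (limma adjusted p = 0.025). The Cyp2j5 call held in 14 of 21 alternative fits. Among the fits in which it was lost were those on total fragments (0.19), with upper-quartile scaling (0.062), with quantile normalization (0.059), with a GC trend removed (0.32) and without WT DMSO replicate 1 (0.07) or WT Tu replicate 2 (0.067). Cyp2d9, a steroid hydroxylase of male mouse liver, had 3.30, 3.73 and 4.92 FPKM in WT Tu and 2.41, 3.04 and 3.003 FPKM in WT DMSO. The groups did not overlap, and the log2 change of 0.38 ± 0.12 passed at a limma adjusted p of 0.04. It passed in 9 of 21 alternative fits and was lost without any 1 of the WT DMSO or CKO Tu libraries or WT Tu replicate 2 or 3, at limma adjusted p-values of 0.052 to 0.12.

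**Figure D2:**
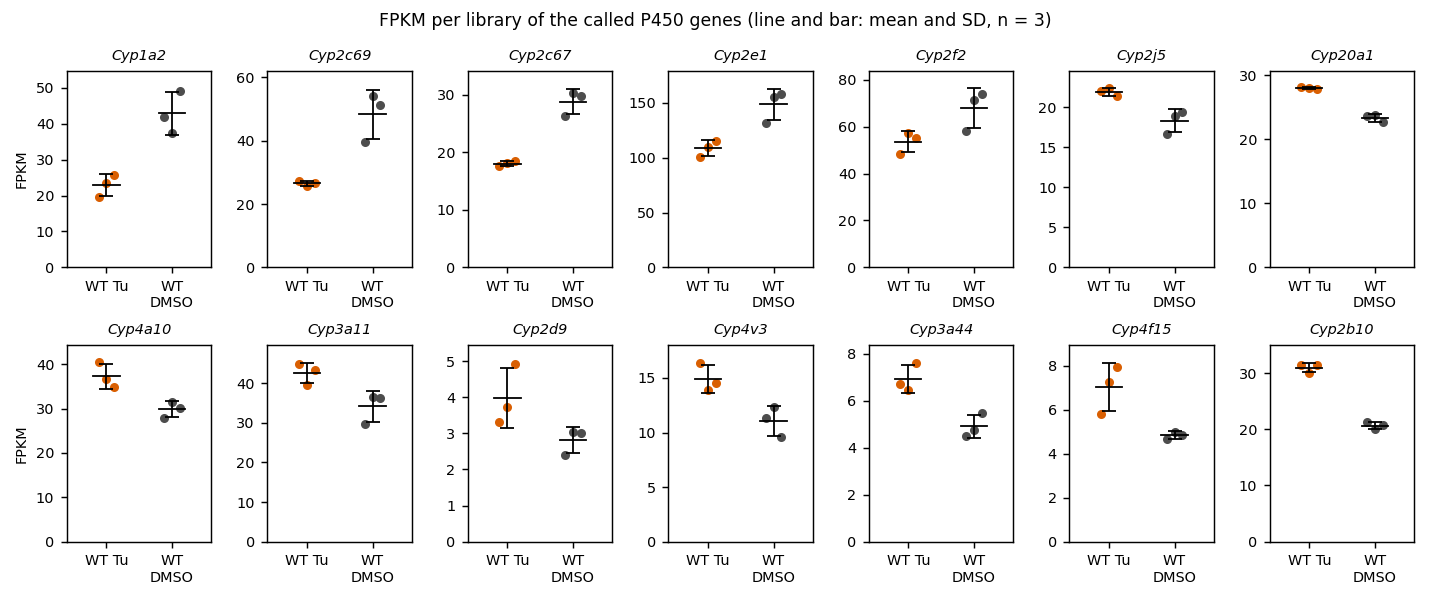
FPKM of the 14 P450 genes that passed the test between WT Tu and WT DMSO, 1 panel per gene with FPKM on the y axis and 1 point per library, WT Tu left of WT DMSO, and lines and bars for mean and SD. In each panel the 3 WT Tu points lie on one side of the 3 WT DMSO points.

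The 4 most abundant P450 genes of the WT Tu libraries did not pass the test. Cyp2a5, which hydroxylates coumarin, had 150.3, 164 and 169 FPKM in WT Tu and 141, 132 and 147 FPKM in WT DMSO, without overlap, at a log2 change of 0.20 ± 0.07 that did not pass (limma adjusted p = 0.052). Cyp2a4, a testosterone hydroxylase of female mouse liver, averaged 137 ± 21.9 FPKM in WT Tu and 121 ± 8.66 FPKM in WT DMSO (limma adjusted p = 0.29). Cyp2d10 averaged 159 ± 16.5 FPKM in WT Tu and 156 ± 8.06 FPKM in WT DMSO (limma adjusted p = 0.87), and Cyp2d26 averaged 140.4 ± 6.42 FPKM in WT Tu and 133 ± 5.39 FPKM in WT DMSO (limma adjusted p = 0.43).

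Summed over the 97 genes, P450 FPKM came to 1539, 1555 and 1638 in WT Tu and to 1447, 1581 and 1623 in WT DMSO, and the groups overlapped. That was 0.418% to 0.442% of all FPKM in the WT Tu libraries and 0.431% to 0.463% in the WT DMSO libraries. Some of the sums by subfamily differed more. Cyp1a came to 21.3, 25.3 and 27.1 FPKM in WT Tu and 43.1, 38.7 and 50.7 FPKM in WT DMSO, and Cyp2e to 109 ± 7.50 FPKM in WT Tu and 149 ± 14.4 FPKM in WT DMSO. Cyp2b came to 52.9, 48.2 and 51.5 FPKM in WT Tu and 35.2, 40.1 and 38.4 FPKM in WT DMSO, Cyp3a to 132, 109 and 121 FPKM in WT Tu and 84.7, 102 and 104 FPKM in WT DMSO, and Cyp4a to 112, 100.4 and 105 FPKM in WT Tu and 78.6, 91.8 and 91.8 FPKM in WT DMSO. The groups did not overlap in these 5 sums, nor in those of Cyp20a, Cyp2f, Cyp2j and Cyp4v. They overlapped in the sums of Cyp2a, Cyp2c and Cyp2d. Cyp2e1 is the only Cyp2e gene and Cyp1a2 makes up most of Cyp1a, so these 2 sums largely repeat single genes. The sums were not tested, and they stand on the authors' scaling only. The 3 largest sums were Cyp2a (339 ± 28.2 FPKM, 21.5%), Cyp2d (324 ± 21.3 FPKM, 20.5%) and Cyp2c (297 ± 8.77 FPKM, 18.8%) in WT Tu, against 298 ± 17.2 FPKM (19.3%), 311 ± 12.7 FPKM (20.1%) and 321 ± 20.2 FPKM (20.7%) in WT DMSO.

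**Figure D3:**
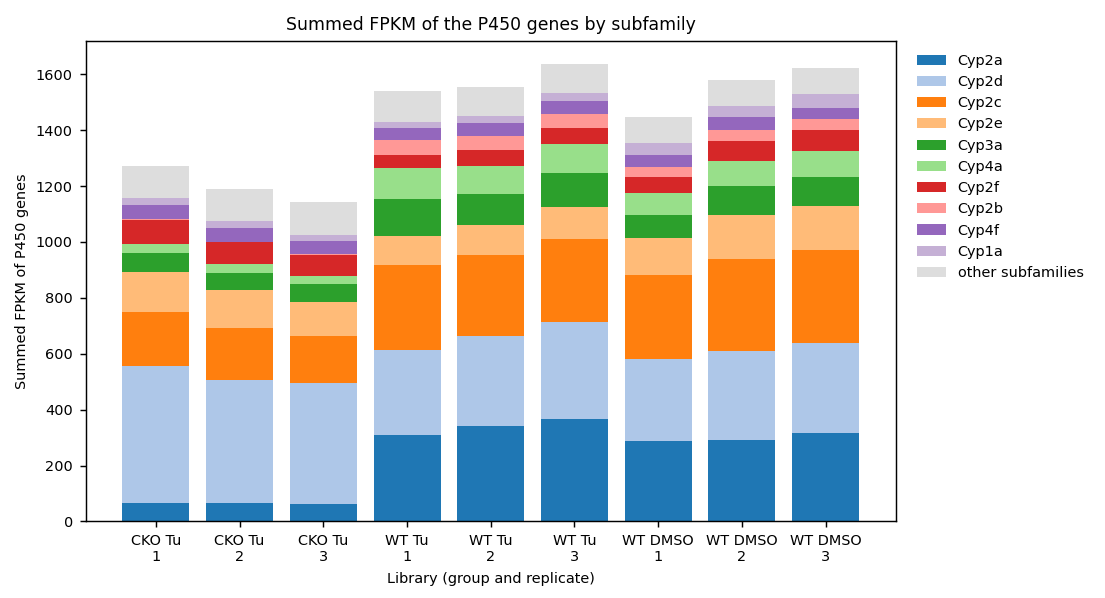
Summed FPKM of the P450 genes (y axis) in each of the 9 libraries (x axis, CKO Tu, WT Tu and WT DMSO), with the colours of each bar for subfamilies. The Cyp2a segment averages 63.6 FPKM in CKO Tu, 339 FPKM in WT Tu and 298 FPKM in WT DMSO, and the narrow Cyp1a segment 24.6 FPKM in WT Tu and 44.2 FPKM in WT DMSO.

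Of the P450 genes listed for sterol and bile acid, vitamin D and retinoid, or steroid synthesis, 2, 3 and 1 were tested in that order, and 0 passed in limma between WT Tu and WT DMSO (0, 1 and 0 at an unadjusted p below 0.05). Cyp7b1, an oxysterol hydroxylase of bile acid synthesis, averaged 1.14 ± 0.221 FPKM in WT Tu and 1.11 ± 0.0251 FPKM in WT DMSO, at a log2 change of 0.02 ± 0.09 (limma adjusted p = 0.91). Cyp39a1, also an oxysterol hydroxylase, had a log2 change of 0.14 ± 0.09 (limma adjusted p = 0.25), and Cyp17a1, an enzyme of androgen synthesis, one of 0.14 ± 0.11 (limma adjusted p = 0.34). Cyp26a1, which clears retinoic acid, had 1.31, 1.83 and 2.67 FPKM in WT Tu and 3.22, 1.51 and 1.75 FPKM in WT DMSO (limma adjusted p = 0.79), and the groups overlapped widely. Of the vitamin D enzymes, Cyp2r1 had a log2 change of 0.14 ± 0.14 (limma adjusted p = 0.51) and Cyp27b1, which activates vitamin D, one of -0.34 ± 0.13 (limma adjusted p = 0.087), with means of 2.15 ± 0.306 FPKM in WT Tu and 3.01 ± 0.702 FPKM in WT DMSO. Cyp2c70, which is on none of these lists and makes muricholic acids in mice, averaged 20.2 ± 1.18 FPKM in WT Tu and 18.1 ± 2.71 FPKM in WT DMSO (limma adjusted p = 0.29).

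The remaining 40 genes did not reach an FPKM of 1 in 3 libraries. Of these, Cyp2j7, Cyp2j11, Cyp2j12, Cyp4a30b, Cyp4f37 and Cyp4x1 had 0 fragments in all 9 libraries and 34 had some. Cyp7a1, the rate-limiting enzyme of bile acid synthesis, had 0, 1 and 0 fragments in WT Tu and 0, 2 and 0 in WT DMSO. Cyp24a1, which inactivates vitamin D, had 6, 1 and 5 fragments in WT Tu and 1, 4 and 4 in WT DMSO. For both genes the tunicamycin difference was not detectable at this depth. Under the filter, Cyp2j8, Cyp21a1, Cyp2d11, Cyp26c1 and Cyp2u1 had a ratio between WT Tu and WT DMSO whose 95% exact interval left out 1. The interval covers counting error only and not the spread between libraries, and the share of all genes with such an interval was not counted. Over the libraries, exact permutation p-values of these 5 genes were 0.1 to 0.3. Cyp2j8 had 9, 1 and 7 fragments in WT Tu and 0, 0 and 1 in WT DMSO, a ratio of 18.3 (2.87 to 766, exact permutation p = 0.1). Cyp21a1, an enzyme of adrenal steroid synthesis, had 5 fragments over WT Tu and 20 over WT DMSO (0.269, 0.0790 to 0.740, exact permutation p = 0.2), Cyp2d11 had 20 over WT Tu and 50 over WT DMSO (0.431, 0.243 to 0.737, exact permutation p = 0.3), and Cyp26c1, which clears retinoic acid, had 28 over WT Tu and 51 over WT DMSO (0.592, 0.359 to 0.956, exact permutation p = 0.2). The largest counts among the 5 were those of Cyp2u1, a fatty acid hydroxylase, with 132 fragments over WT Tu and 212 over WT DMSO, a ratio of 0.671 (0.536 to 0.838). Its libraries held 61, 26 and 45 fragments in WT Tu and 84, 59 and 69 in WT DMSO, so 1 WT Tu library lay within the range of the WT DMSO libraries (exact permutation p = 0.2, two-sided, where 0.1 is the smallest that 3 against 3 allows).

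Grouped by the receptor or pathway that each gene is known for, in lists drawn from general knowledge, the calls were spread. Of 12 CAR and PXR target genes tested 2 rose and 0 fell (median log2 change 0.21), and of 4 PPARα targets 1 rose and 0 fell (median 0.27). Of 12 omega-hydroxylases tested, of 19 listed, 3 rose and 0 fell (median 0.16), and of 2 AHR targets tested 0 rose and 1 fell. Of 9 pericentral genes tested 1 rose and 2 fell (median 0.10), and the 1 periportal gene, Cyp2f2, fell. The 1 mitochondrial P450 tested, Cyp27b1, did not pass there but passed in 3 of 20 alternative fits. Over all genes tested, 17.7% rose, 15.9% fell and the median was -0.0015.

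Genes that serve or control P450 enzymes were read beside them, from lists drawn from general knowledge. Among 9 tested genes of a list of electron donors and partners, of 10 listed, 1 rose and 2 fell (median log2 change -0.05). Of all genes tested, 17.7% rose and 15.9% fell. H6pd, which makes NADPH in the ER lumen, averaged 7.87 ± 0.905 FPKM in WT Tu and 33.9 ± 6.49 FPKM in WT DMSO, a log2 change of -1.97 ± 0.12 (limma adjusted p = 8.3e-06). Cyb5b, the cytochrome b5 of the outer mitochondrial membrane, averaged 135 ± 17.3 FPKM in WT Tu and 74.0 ± 8.27 FPKM in WT DMSO (0.86 ± 0.10, limma adjusted p = 0.00035). Por, the P450 reductase, had 114, 138 and 144 FPKM in WT Tu and 148, 165 and 179 FPKM in WT DMSO. Its log2 change of -0.32 ± 0.10 passed at a limma adjusted p of 0.046 and was lost in 11 of 21 alternative fits.

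Of 14 tested genes of heme synthesis and breakdown, 3 rose and 5 fell (median log2 change -0.18), where 17.7% of all genes rose and 15.9% fell. Cpox, the coproporphyrinogen oxidase, rose by 1.04 ± 0.09 (limma adjusted p = 5.8e-05), and Flvcr1, a heme exporter, by 0.45 ± 0.08 (limma adjusted p = 0.0036). Blvra, biliverdin reductase, had a log2 change of -0.90 ± 0.08 (limma adjusted p = 7.5e-05), and Slc48a1, a heme transporter, one of -0.41 ± 0.07 (limma adjusted p = 0.0019). Alas1, the first enzyme of heme synthesis, which was singled out after its values were seen, averaged 14.7 ± 0.293 FPKM in WT Tu and 19.0 ± 1.12 FPKM in WT DMSO (-0.36 ± 0.06, limma adjusted p = 0.0016).

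Of 18 tested regulators of P450 genes, of 25 listed, 3 rose and 8 fell (median log2 change -0.24), where 17.7% of all genes rose and 15.9% fell. Hnf4a, the nuclear receptor whose motif letters stand in the windows above, averaged 6.43 ± 0.779 FPKM in WT Tu and 11.2 ± 0.981 FPKM in WT DMSO (-0.72 ± 0.09, limma adjusted p = 0.00052). Cebpa, a leucine zipper factor of hepatocytes, averaged 27.2 ± 5.44 FPKM in WT Tu and 61.7 ± 15.5 FPKM in WT DMSO (-1.15 ± 0.18, limma adjusted p = 0.0016). Foxa2, a forkhead factor, and Nr5a2, a nuclear receptor, had log2 changes of -0.72 ± 0.13 and -0.63 ± 0.09 (limma adjusted p = 0.0026 and 0.0011). Of the 10 genes whose windows hold the HNF4A letters, 8 were tested. Cyp2c67 and Cyp2c69 fell, Cyp3a11 rose, and Cyp2c40, Cyp2c68, Cyp2c70, Cyp3a41a and Cyp3a41b did not pass, while Cyp2c65 and Cyp3a16 were below the filter.

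Other cells in the cultures were followed by marker genes. Of 5 tested endothelial markers, of 10 listed, 0 rose and 4 fell, among them Eng (-1.21) and Stab1 (-0.82), and their summed level was 5.83 to 7.07 FPKM in WT Tu and 13.0 to 13.4 FPKM in WT DMSO. Of 2 tested Kupffer cell markers Lyz2 fell (-1.11) and Cd68 rose (0.37). The list summed to 96.9 to 115 FPKM in WT Tu and 75.3 to 93.0 FPKM in WT DMSO. Those sums were mostly Cd68, whose mean went from 83.1 ± 8.94 FPKM with DMSO to 107 ± 9.53 FPKM with tunicamycin. Under the filter, and so not tested, group fragments went down with tunicamycin for Mpeg1 (125 to 45), Csf1r (70 to 24) and Adgre1 (24 to 7). Cd5l (13 to 0), Marco (6 to 0) and Clec4f (4 to 2) were lower too. Timd4 had 1 fragment in either group, and Vsig4 was at 0 in all 9 libraries. Of 6 tested hepatocyte markers 0 rose and Hnf4a and Ttr (-0.19) fell, with sums of 15886 to 17378 FPKM in WT Tu and 15990 to 17782 FPKM in WT DMSO. The share of fragments from mitochondrial genes was 6.87%, 5.25% and 5.90% in WT Tu and 4.39%, 5.69% and 5.24% in WT DMSO. Of 3 tested cholangiocyte markers 0 rose and 1 fell, with sums of 23.8 to 25.4 FPKM in WT Tu and 24.5 to 27.6 FPKM in WT DMSO, and of 2 stellate cell markers 0 rose and 0 fell. The 1 tested marker of lymphocytes and neutrophils, Camp, rose (1.83), with sums of 4.74 to 6.42 FPKM in WT Tu and 1.25 to 1.36 FPKM in WT DMSO. The part of these markers and shares in the P450 changes was not tested.

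**Figure D4:**
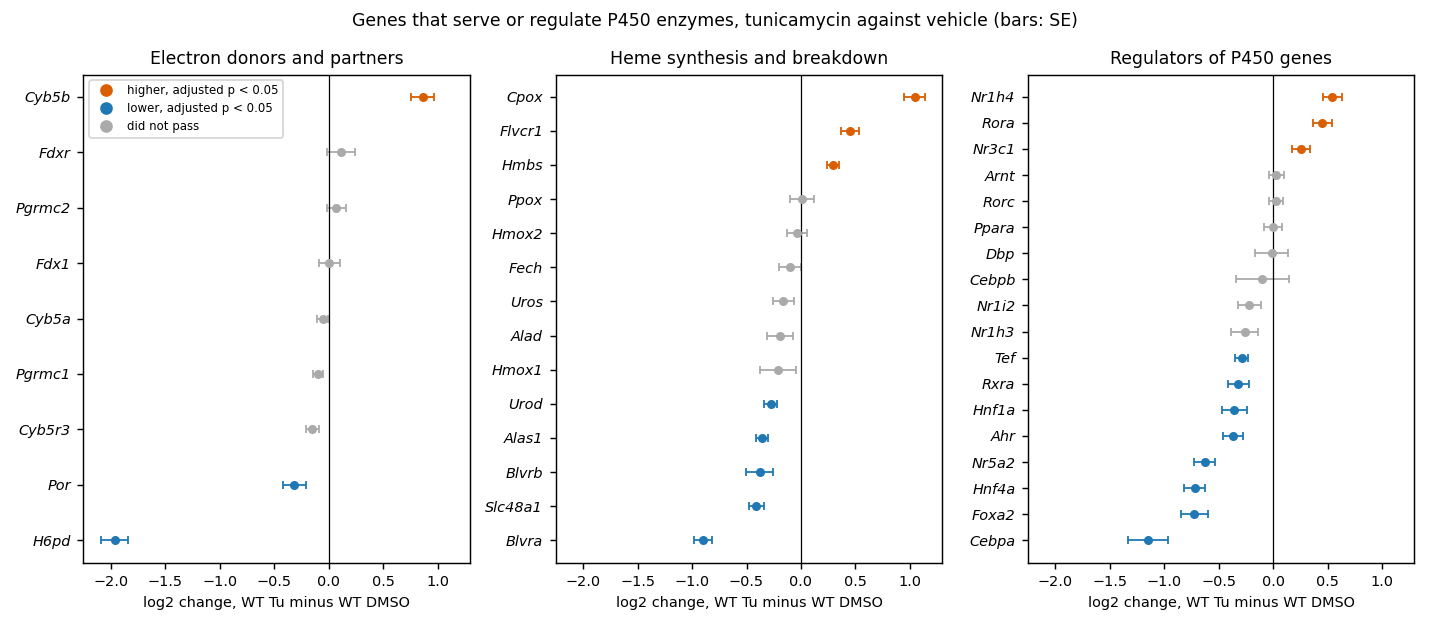
Log2 changes of the tested electron donors and partners, heme genes and regulators of P450 genes between WT Tu and WT DMSO on the log2(FPKM + 1) scale (x axis), genes on the y axis in 3 panels, with bars for the limma standard error and colours for genes that were higher, lower or did not pass. H6pd at -1.97 and Cpox at 1.04 are the outermost points.

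CKO Tu and WT Tu differed in 42 of the 57 P450 genes, in a comparison that shares the WT Tu libraries with the one above. The 42 were 73.7% of the P450 genes tested, against 38.3% of all genes tested. Higher in CKO Tu were 13 (22.8%, against 18.7%) and lower were 29 (50.9%, against 19.6%). A log2 difference of at least 1 in size was passed by 26 (45.6%, against 3.69%), 5 of them higher and 21 lower, and the libraries of the groups did not overlap in 45 (78.9%, against 51.2%). The median size of the difference was 0.75 over the 57 genes and 0.23 over all genes. The filter kept Cyp4a12a and Cyp4a12b through the CKO Tu libraries alone and 10 genes through WT libraries alone, so these 12 entered the test through the libraries in which they were high. The 10 were Cyp2a4, Cyp2a22, Cyp2b9, Cyp2b13, Cyp2c38, Cyp2c69, Cyp3a41a, Cyp3a41b, Cyp3a44 and Cyp4a31. Genotype and the sex pattern of the libraries cannot be told apart in any of these values.

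On the log2(FPKM + 1) scale, the 5 genes with the largest differences towards CKO Tu were Cyp2d9, Cyp7b1, Cyp4a12a, Cyp4a12b and Cyp2c70, of which each but Cyp2c70 is on a list of genes known as male-predominant in mouse liver. Cyp2d9 had 71.1, 64.8 and 63.9 FPKM in CKO Tu, against 3.30, 3.73 and 4.92 FPKM in WT Tu, a log2 difference of 3.77 ± 0.12 (limma adjusted p = 1.3e-07). Cyp7b1 had 19.6, 18.9 and 21.7 FPKM in CKO Tu and 1.40, 1.03 and 1.00 FPKM in WT Tu (3.30 ± 0.09, limma adjusted p = 4.6e-08), so that CKO Tu was 17.6 times WT Tu. Cyp4a12a, a fatty acid hydroxylase, had 265, 278 and 277 fragments in CKO Tu and 0, 0 and 4 in WT Tu. Cyp4a12b had 68, 61 and 65 fragments in CKO Tu and 0 in all 6 WT libraries, at least 62.3-fold higher in CKO Tu with 3 fragments over the group as the floor. The pair share 35.8% and 36.2% of their 100-base windows, so the division between them is uncertain. Cyp2c70 averaged 50.5 ± 4.40 FPKM in CKO Tu and 20.2 ± 1.18 FPKM in WT Tu (1.28 ± 0.11, limma adjusted p = 5.7e-05). Cyp7a1, which missed the filter, had 23, 8 and 7 fragments in CKO Tu and 0, 1 and 0 in WT Tu, a ratio of 36.6 with a 95% exact interval of 6.19 to 1485 for counting error (exact permutation p = 0.1, two-sided, the smallest that 3 against 3 allows).

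On the same scale, which shrinks the difference of genes at low FPKM, the 5 with the largest differences the other way were Cyp2a4, Cyp2b9, Cyp2c69, Cyp2c40 and Cyp2b10, all of them on a list of genes known as female-predominant in mouse liver. Cyp2a4 had 3, 3 and 3 fragments in CKO Tu and 2834, 3736 and 4065 in WT Tu, a log2 difference of -6.94 ± 0.11 (limma adjusted p = 1e-09). Its close relative Cyp2a5 had 26.7, 29.1 and 25.5 FPKM in CKO Tu and 150.3, 164 and 169 FPKM in WT Tu (-2.53 ± 0.07, limma adjusted p = 6e-08), beside promoter windows that are nearly identical. Of the 100-base windows of their transcripts, 11.2% in Cyp2a4 and 14.4% in Cyp2a5 also occur in other genes. Cyp2b9 had 0 fragments in each CKO Tu library and 504, 458 and 507 in WT Tu, at least 508-fold higher in WT Tu with the same floor. Cyp2b13, Cyp3a41a, Cyp3a41b and Cyp3a16 had 0 fragments in CKO Tu too, and were at least 67.1-fold, 37.3-fold, 47.7-fold and 16.9-fold higher in WT Tu. Cyp3a41a and Cyp3a41b share 90.8% and 88.2% of their windows, so their separate levels are uncertain. Cyp3a44 had 1, 0 and 0 fragments in CKO Tu and 187, 200 and 220 in WT Tu.

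In the Cyp2c cluster, Cyp2c69 had 0.577, 0.474 and 0.445 FPKM in CKO Tu and 27.2, 25.7 and 26.6 FPKM in WT Tu (-4.20 ± 0.11, limma adjusted p = 3.9e-08). Cyp2c40 had 1.19, 0.665 and 0.805 FPKM in CKO Tu and 23.2, 22.1 and 21.4 FPKM in WT Tu (-3.63 ± 0.10, limma adjusted p = 7e-08), and Cyp2c68 averaged 10.9 ± 1.13 FPKM in CKO Tu and 44.5 ± 1.91 FPKM in WT Tu. Cyp2c67 went the other way, with 25.6, 23.4 and 20.8 FPKM in CKO Tu and 17.6, 18.1 and 18.4 FPKM in WT Tu (0.35 ± 0.08, limma adjusted p = 0.01). Neighbouring copies thus differed in opposite directions. Over the 12 Cyp2c genes tested 2 were higher and 8 lower, where 18.7% of all genes tested were higher and 19.6% lower. The median log2 difference of the 12 was -1.15. Cyp2c38 and Cyp2c69, among the 8, passed the filter through WT libraries alone, so for them a difference was bound to appear.

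Of the 12 tested CAR and PXR targets 0 were higher in CKO Tu and 10 were lower, of the 4 PPARα targets 0 were higher and 3 lower, and of the 2 AHR targets 0 were higher and 0 lower, where 18.7% of all genes tested were higher and 19.6% lower. Cyp2b10 had 2.54, 2.41 and 1.93 FPKM in CKO Tu and 31.4, 30.0 and 31.5 FPKM in WT Tu (-3.28 ± 0.08, limma adjusted p = 2.1e-08). Cyp3a11 had 12.4, 11.3 and 12.3 FPKM in CKO Tu and 44.8, 39.7 and 43.3 FPKM in WT Tu (-1.74 ± 0.09, limma adjusted p = 2.7e-06). Cyp4a10 averaged 9.65 ± 0.545 FPKM in CKO Tu and 37.3 ± 2.87 FPKM in WT Tu, and Cyp4a14 averaged 11.6 ± 1.93 FPKM in CKO Tu and 64.1 ± 3.14 FPKM in WT Tu (limma adjusted p = 6.3e-07 and 2.3e-06). Of 13 tested genes of the female-predominant list, drawn from general knowledge with earlier results of these data known, 13 were lower in CKO Tu. Of 7 listed as male-predominant 5 were higher and Cyp2d40 was lower (log2 difference -0.43), against the same shares of all genes. Cyp2a4, Cyp2b9, Cyp2b13, Cyp2c69, Cyp3a41a, Cyp3a41b and Cyp3a44 of the female list passed the filter through WT libraries alone. So did Cyp2b9 and Cyp2b13 among the lower CAR and PXR targets and Cyp4a31 among the lower PPARα targets. Cyp4a12a and Cyp4a12b of the male list passed it through CKO Tu alone. For these genes a difference was bound to appear. The female list holds Cyp2b9, Cyp2b10, Cyp2b13, Cyp4a10 and Cyp4a14 too, so it shares these genes with the receptor lists.

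Cyp2f2, 1 of the 5 higher genes of the male list, averaged 78.6 ± 6.06 FPKM in CKO Tu and 53.6 ± 4.65 FPKM in WT Tu (0.55 ± 0.10, limma adjusted p = 0.0038). Outside both lists, Cyp4v3 averaged 23.0 ± 0.126 FPKM in CKO Tu and 14.9 ± 1.27 FPKM in WT Tu (0.59 ± 0.09, limma adjusted p = 0.0012), and Cyp4f15 averaged 13.0 ± 0.996 FPKM in CKO Tu and 7.01 ± 1.09 FPKM in WT Tu (0.81 ± 0.10, limma adjusted p = 0.0004). Cyp1a2 averaged 21.8 ± 1.38 FPKM in CKO Tu and 23.0 ± 3.09 FPKM in WT Tu, at a log2 difference of -0.07 ± 0.12 that did not pass (limma adjusted p = 0.68). Cyp2e1 averaged 135 ± 11.3 FPKM in CKO Tu and 109 ± 7.50 FPKM in WT Tu (0.31 ± 0.09, limma adjusted p = 0.027), a call that was lost without WT Tu replicate 1 or 2 or CKO Tu replicate 1 or 2. Hnf4a averaged 19.8 ± 1.25 FPKM in CKO Tu and 6.43 ± 0.779 FPKM in WT Tu (1.48 ± 0.09, limma adjusted p = 1e-05). Of the 18 tested regulators 13 were higher and 0 lower, against 18.7% and 19.6% of all genes, with a median log2 difference of 0.47. Summed over all P450 genes, FPKM came to 1201 ± 66.3 in CKO Tu and 1577 ± 53.0 in WT Tu. The Cyp2a subfamily made up 5.30% of the sum in CKO Tu and 21.5% in WT Tu, and Cyp2d made up 37.9% in CKO Tu and 20.5% in WT Tu. Of the tested marker genes, 5 of 6 hepatocyte markers were higher and 1 lower in CKO Tu, 2 of 3 cholangiocyte and 1 of 2 stellate cell markers were higher, and 1 of 5 endothelial markers and the 1 marker of lymphocytes and neutrophils were lower, while 0 of 2 Kupffer cell markers passed in limma (0 at an unadjusted p below 0.05). The hepatocyte list summed to 13915 to 14793 FPKM in CKO Tu and 15886 to 17378 FPKM in WT Tu, and the cholangiocyte list to 35.6 to 39.5 FPKM in CKO Tu and 23.8 to 25.4 FPKM in WT Tu. The stellate list summed to 6.52 to 7.37 FPKM in CKO Tu and 5.26 to 5.95 FPKM in WT Tu, the endothelial list to 4.90 to 5.12 FPKM in CKO Tu and 5.83 to 7.07 FPKM in WT Tu, the Kupffer cell list to 92.7 to 107 FPKM in CKO Tu and 96.9 to 115 FPKM in WT Tu, and the lymphocyte and neutrophil list to 2.49 to 4.27 FPKM in CKO Tu and 4.74 to 6.42 FPKM in WT Tu. Mitochondrial genes held 4.53%, 4.65% and 4.46% of fragments in CKO Tu and 6.87%, 5.25% and 5.90% in WT Tu. The part of these markers and shares in the P450 differences was not tested.

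**Figure D5:**
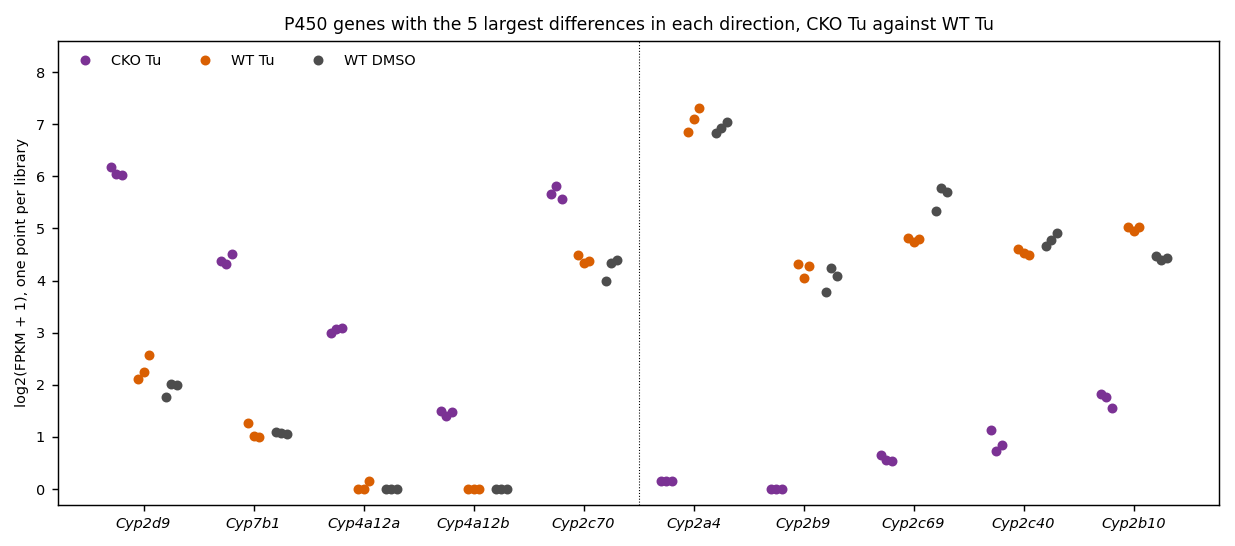
Levels on the log2(FPKM + 1) scale (y axis) of the P450 genes with the 5 largest differences in each direction between CKO Tu and WT Tu, 1 point per library, in the order CKO Tu, WT Tu and WT DMSO. For each of the 10 genes the 3 CKO Tu points lie apart from the 6 WT points, as with Cyp2a4 at 3 fragments in each CKO Tu library.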

How the data were processed

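RNA of primary hepatocytes was sequenced in 9 libraries, grouped by the labels. Alignment to mm10 used HISAT2 2.2.1 and counting used featureCounts 1.5.0-p3, per the submitters' processing notes. The annotation release and the strand setting are not given in the sources used here. The deposited values are FPKM computed by the authors. Fragments were recovered from their steps, 100% whole within 0.001 fragments per library, and the library sizes behind FPKM were 0.948 to 1.07 times the fragment totals. For each of 2 comparisons log2(FPKM + 1) was fitted with limma 3.58.1 (R 4.3.3, intensity trend, Benjamini-Hochberg adjustment), for genes that reached an FPKM of 1 in 3 or more libraries, and checked on simulated data. Shared windows came from mm10 transcripts of GENCODE. Exact intervals cover counting error only. Alternatives changed the pseudocount, filter, scaling, model, weights, libraries and GC trend, the last chosen after seeing the data. P450 genes and lists were chosen with earlier results of these data known. Genes were named when they passed under tunicamycin, were abundant, had known endogenous roles or were among the 5 largest differences each way between genotypes, with the top 4 of each related list and the top 2 of each marker list. Others are named to complete a subfamily or list.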

Additional observations from a re-analysis of the deposited data

Results flagged for a closer look

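Transcripts that are not among the 97 protein-coding genes also differed between CKO Tu and WT Tu. The table holds 31 Cyp pseudogenes and antisense genes, of which 3 passed the filter. Cyp2c53-ps averaged 2.35 ± 0.382 FPKM in CKO Tu and 0.165 ± 0.0955 FPKM in WT Tu, a log2 difference of 1.52 (limma adjusted p = 8.6e-05). Cyp2d38-ps averaged 1.29 ± 0.226 FPKM in CKO Tu and 0.0960 ± 0.0365 FPKM in WT Tu, a log2 difference of 1.06 (limma adjusted p = 0.0003). Both passed the filter through the CKO Tu libraries, so a difference was bound to appear, and genotype and sex pattern cannot be told apart in them. The third, Cyp2c52-ps, had a log2 difference of 0.22 (limma adjusted p = 0.12).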

How the results depend on the processing

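Under tunicamycin the counts of 9 higher and 5 lower P450 genes became 4 and 8 on total fragments (1430 and 3108 of all genes). They became 5 and 5 with a GC trend removed (2014 and 1739 of all genes), and 0 and 0 with a log2 change of at least 1 required (376 of all genes). Leaving out 1 library at a time gave 6 to 10 higher and 4 to 6 lower. Between CKO Tu and WT Tu the 13 higher and 29 lower became 5 and 21 with the fold requirement (437 of all genes), and 9 to 13 higher and 26 to 29 lower without 1 library. Same-numbered libraries did not deviate together (correlations between -0.048 and 0.021). These values cannot show whether same-numbered cultures came from one preparation, which the labels do not state. With the replicate block, 8 were higher and 4 lower under tunicamycin (3696 of all genes, 3981 without the block), and 12 and 28 between genotypes (4248, against 4538). Over the single P450 genes and named genes no call changed sign. Calls near the threshold were lost or gained, and the cause was not tested. Depth limits the 40 P450 genes under the filter. The 3 libraries per group, fragments shared between near-identical copies and the unstated source of the replicates limit the rest.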
